A study of Homo sapiens with 33 samples.

Results

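The samples compared here are NB4 cells that had been in all-trans retinoic acid (ATRA) for 72 h and NB4 cells that had been in it for 24 h. They were chosen by their labels alone, as the 6 RNA-seq libraries with ATRA and either time, 3 a time point, of 33 libraries in the series. NB4 is an established human line of acute promyelocytic leukaemia, in which the PML-RARA fusion protein holds myeloid precursors at the promyelocyte stage. All 6 cultures received 1 µM ATRA, a vitamin A derivative that binds the retinoic acid receptors and is used as differentiation therapy of this leukaemia. The series also holds ATRA cells at 4, 12 and 120 h, cells in the solvent DMSO at the same 5 times, and untreated cells at 0 h, 3 libraries a group. Of these, the DMSO libraries of 72 h and 24 h served to show what changed over the same interval without the drug. Cultures got new medium and drug on day 3, and whether the 72 h cells were taken before or after that is not given in the sources used here. The line stands for 1 patient's leukaemia, so the replicates are cultures of the same cells. They are numbered 2, 4 and 5 in the sample titles and are biological triplicates per the labels.

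ATRA acts in such cells through retinoic acid receptors bound at target genes, where it releases corepressors and leads to degradation of the fusion protein. The cells then leave the cell cycle over days and take on features of granulocytes, with an oxidase that makes superoxide, integrins for adhesion and receptors for antibodies and complement. Type I interferons are secreted proteins that act through IFNAR1 and IFNAR2, the kinases JAK1 and TYK2, and a complex with STAT2 and IRF9, which turns on antiviral genes.

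Total counts were 22443175, 27578421 and 27844955 fragments in the 72 h libraries and 28398125, 22318770 and 27083383 in the 24 h libraries, replicates 2, 4 and 5 in that order, within 18341456 to 33490654 for the series. Levels are given as CPM, the count of a gene relative to its library's total after scaling by the trimmed mean of M values. Libraries of 1 time correlated at 0.9918 to 0.9929 across genes on the log scale, and every pair differed by more than sampling noise. At both times replicate 2 was in lane 2 and replicates 4 and 5 in lane 3, so lane does not separate the times. Mitochondrial genes took 1.014 ± 0.195% of counts at 72 h and 1.73 ± 0.194% at 24 h, and small RNA genes 10.1 ± 0.846% and 7.351 ± 0.469% (SD, n = 3 each). Protein-coding genes took 77.59 ± 1.37% of counts at 72 h and 81.61 ± 0.283% at 24 h. Each of these differences had an exact permutation p of 0.1, 2-sided, the smallest that 3 against 3 allows. Promyelocyte genes marked the groups only in part, with 7 of 10 listed tested. MPO, the myeloperoxidase of primary granules, averaged 5848 CPM at 72 h against 7939 CPM at 24 h. PRTN3, proteinase 3, averaged 1189 CPM at 72 h against 2845 CPM at 24 h, and CEBPE 262 against 321 CPM. ELANE, neutrophil elastase, had 0.0545 CPM at 72 h against 0.0669 CPM at 24 h. CTSG, cathepsin G, averaged 0.381 CPM at 72 h against 7.31 CPM at 24 h. KIT had 1 count at 72 h and 3 at 24 h.

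The difference between the times reached most genes. Of 19624 genes with enough counts to be tested, 13964 (71.2%) passed at an adjusted p under 0.05, 6966 (35.5%) higher at 72 h and 6998 (35.7%) lower (edgeR quasi-likelihood test, Benjamini-Hochberg adjustment over all genes tested). The calls were even in number but not in size: 1622 genes (8.27%) were at least 4-fold higher and 145 (0.739%) at least 4-fold lower. The libraries of the 2 times did not overlap for 14565 genes (74.2%). Among 12717 protein-coding genes tested, 4825 were higher and 5355 lower. In DMSO cells, 11639 of 18832 genes tested (61.8%) passed between 72 h and 24 h, 5857 (31.1%) higher and 5782 (30.7%) lower, of which 504 (2.68%) were at least 4-fold higher and 81 (0.43%) at least 4-fold lower. The change itself differed between ATRA and DMSO for 11014 of 21057 genes (52.3%), upwards for 5115 (24.3%) and downwards for 5899 (28%), by a test of the difference of the changes in 1 model of all 12 libraries. This split depended on the method: DESeq2 gave 5562 upwards and 4873 downwards, and RLE size factors 5571 and 5327. With so many genes called, a count of list members says little unless it is far from these percentages, so the median log2 change of the lists is given too, beside -0.013 for all genes tested. A gene silent at 24 h could pass the filter on low counts through the 72 h libraries alone. This was so for IER3, IFNL1, FCGR3B, S100A12, ARG1, ID3 and AIM2. Genes with few counts at 24 h, such as ZBP1, TNFSF15, LIF and EGR3, also passed that way. For all such genes only a rise could be found, so counts and medians describe the members with enough counts. A DMSO median is over the members tested in the DMSO libraries, which for several lists are fewer. A bulk level cannot tell more cells with a transcript from more transcript per cell. Of the genes given below with a value in each library, CYP26A1 alone had ATRA groups that overlapped. Counts of a gene can include fragments of a neighbour where their exons overlap on 1 strand, which holds for over 5% of the length of ADM, ALDOC, BCL2A1, BIRC3, CASP1, CD33, CD38, CEBPA, CYP26A1, DEFA3, EGR3, FCGR2A, FCGR2B, FCGR3B, HLA-B, IFNA1, IFNAR2, IRF1, ITGB3, LTC4S, LTF, MCL1, PLAUR, PLK1, PTGES, RRS1, NOP56, SERPINB2, SLC2A3, TAP1, TNFRSF10D and UHRF1 among the genes named, and for others as stated.

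**Figure D1:**
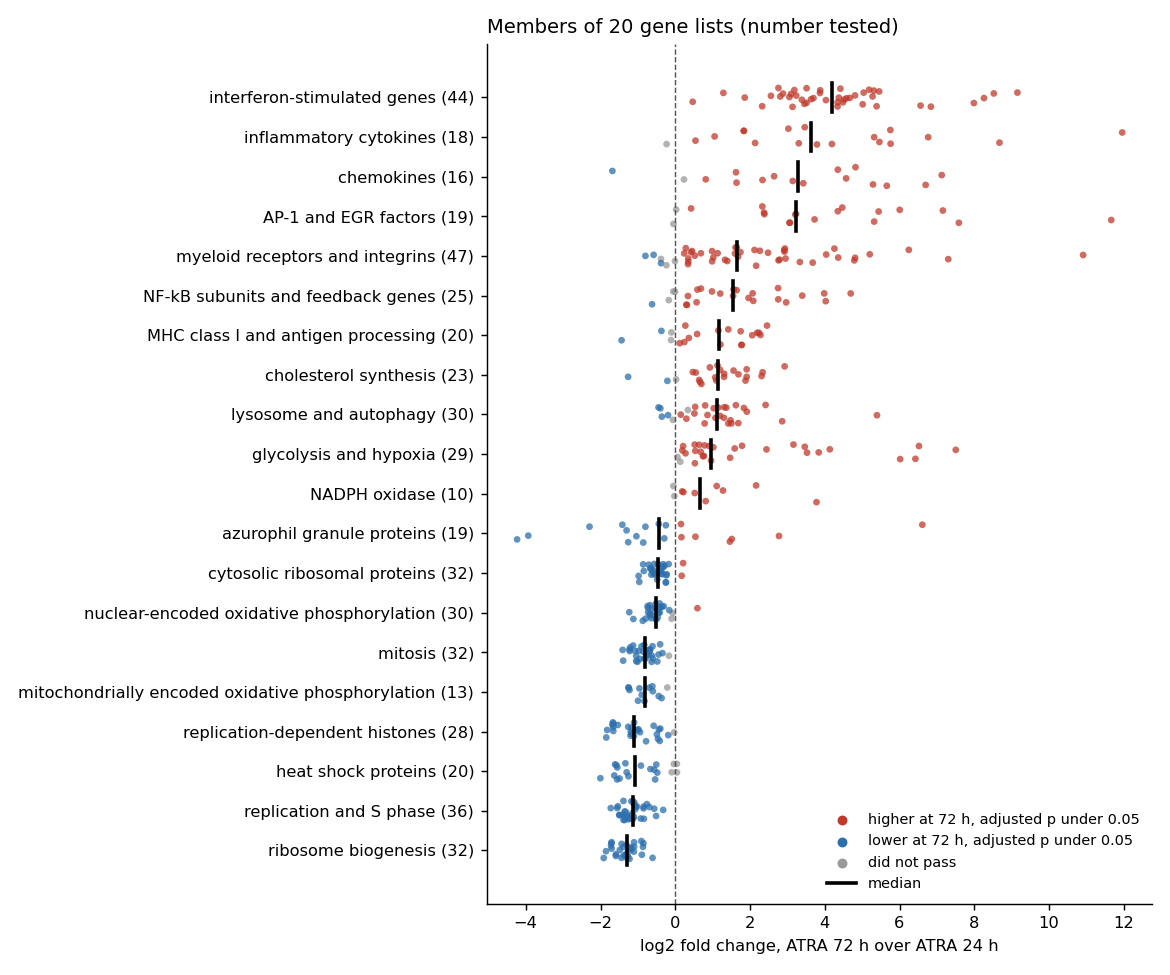
Log2 fold change of ATRA 72 h over ATRA 24 h (x axis) for every tested member of 20 gene lists (rows), coloured by call, with the list median as a black bar. The interferon-stimulated genes have a median of 4.19 and ribosome biogenesis genes one of -1.303; the rightmost point of the AP-1 and EGR row, IER3, and FCGR3B among the myeloid receptors had no count at 24 h, so their positions depend on the prior count.

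Antiviral genes rose together. All 44 listed interferon-stimulated genes were tested and all 44 were higher at 72 h, 43 of them at least 2-fold (background 18% of genes), with a median log2 change of 4.19. Their share of all counts was 1.523 ± 0.114% at 72 h and 0.1141 ± 0.00535% at 24 h (SD, n = 3 each; exact permutation p = 0.1, the smallest possible). In DMSO cells the median change of the 39 members tested was 0.23, with 19 higher and 7 lower. The change differed from that in DMSO, upwards, for 43 of 44 (background 24.3%).

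IFIT3 (chr10:89327894-89340971, GRCh38), a protein with tetratricopeptide repeats that binds IFIT1 on foreign RNA, had 831, 731 and 952 CPM at 72 h, against 23.6, 25.2 and 27.6 CPM at 24 h. It was 32.9-fold higher (log2 change 5.04 ± 0.090, adjusted p = 2.72e-20), whereas in DMSO cells its log2 change was -1.14 ± 0.095. The 2 changes differed by 6.18 ± 0.13, adjusted p = 1.51e-19. ISG15, the ubiquitin-like modifier, had 536, 579 and 702 CPM at 72 h, against 28.02, 28.7 and 32.8 CPM at 24 h, a log2 change of 4.34. RIGI, the cytosolic sensor of double-stranded RNA with uncapped ends, had 825, 787 and 1017 CPM at 72 h, against 36.6, 36.2 and 41.8 CPM at 24 h, a log2 change of 4.52. For these genes every 72 h library was more than 10 times the highest 24 h library. The GTPase MX1, a restriction factor for influenza virus, had 19.4, 21.2 and 27.1 CPM at 72 h, against 1.78, 1.499 and 1.896 CPM at 24 h (log2 change 3.697 ± 0.15, adjusted p = 7.25e-15). By the naming rule the largest rises in the list were IFI44L, IFI27, IFI44 and OAS2. IFI44L had 188, 182 and 266 CPM at 72 h, against 0.427, 0.4996 and 0.7805 CPM at 24 h, and IFI27, a small mitochondrial membrane protein, 216, 203 and 291 CPM at 72 h, against 0.569, 0.772 and 0.966 CPM at 24 h. OAS2, which makes the 2',5'-oligoadenylates that activate RNase L, had a log2 change of 6.84. IFI44L shares 6.7% and IFI44 14.9% of exon length with a neighbour on its strand. ZBP1, a sensor of Z-form nucleic acids, had 751 counts at 72 h and 1 at 24 h, a ratio of 795 with an exact 95% interval of 142 to 31400 for counting error only.

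Promoters of these genes are shown because the list moved together, with the interferon-stimulated response element, the sequence bound by the complex with STAT2 and IRF9 and by other interferon regulatory factors. The windows run from 250 bases before to 50 after the start of the gene (RefSeq, GRCh38.p14), 5′ to 3′ on the gene's strand, and the capitals mark GAAA, any 2 bases and GAAA on either strand. The 3 are the members of smallest p with a match: IFI6 (chr1:27672143-27672442, minus strand), OAS3 (chr12:112938224-112938523, plus strand) and PARP9 (chr3:122564251-122564550, minus strand).
IFI6: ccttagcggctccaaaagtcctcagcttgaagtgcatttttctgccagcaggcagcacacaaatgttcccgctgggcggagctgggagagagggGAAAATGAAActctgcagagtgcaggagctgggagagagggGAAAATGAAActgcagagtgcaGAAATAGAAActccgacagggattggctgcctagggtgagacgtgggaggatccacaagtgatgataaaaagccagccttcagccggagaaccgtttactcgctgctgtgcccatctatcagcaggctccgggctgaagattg
OAS3: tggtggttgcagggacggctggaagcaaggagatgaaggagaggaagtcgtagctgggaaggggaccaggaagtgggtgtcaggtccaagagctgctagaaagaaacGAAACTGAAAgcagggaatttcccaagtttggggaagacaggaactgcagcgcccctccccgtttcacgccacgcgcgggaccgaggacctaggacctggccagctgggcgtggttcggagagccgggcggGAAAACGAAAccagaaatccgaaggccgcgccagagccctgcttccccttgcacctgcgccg
PARP9: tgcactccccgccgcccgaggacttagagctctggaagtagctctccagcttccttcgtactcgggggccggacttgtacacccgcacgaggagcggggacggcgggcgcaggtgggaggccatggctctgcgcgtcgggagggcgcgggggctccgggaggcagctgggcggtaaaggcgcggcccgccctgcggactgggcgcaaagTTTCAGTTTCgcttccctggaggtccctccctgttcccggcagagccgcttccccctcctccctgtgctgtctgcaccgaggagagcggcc
IFI6 held 3 matches, the first at -156 and the last at -93 from the start. OAS3 held 2, of which the nearer began at -12. PARP9 held 1, at -41, in the letters of the other strand. In all, 23 of the 33 interferon-stimulated genes with a promoter in the table (69.7%) had a match, as did 11 of 16 genes of MHC class I and antigen processing (68.8%), beside 1195 of 27305 genes (4.38%). Of 12 chemokine genes 1 matched (8.33%), CXCL10, and of 26 mitosis genes none did. A match is a run of letters and shows no binding.

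The interferon genes themselves came into view at 72 h. IFNB1, interferon beta, had 261 counts at 72 h and 1 at 24 h, a ratio of 276 with an exact 95% interval of 49.1 to 11000. IFNL1, a type III interferon, had 61 counts at 72 h and 0 at 24 h, at least 21.5-fold higher when 0 is set to 3 counts for the group. IFNA2 had 61 counts at 72 h and 1 at 24 h, a ratio of 64.5 (11.2 to 2590), and IFNA1 had 1.75 CPM at 72 h against 0.0496 CPM at 24 h. The alpha interferon genes are near-identical copies and their counts are uncertain. No count of interferon gamma, IFNG, was found at either time. These levels were low, with IFNB1 averaging 3.49 CPM at 72 h.

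Of 28 listed interferons, receptors and JAK-STAT genes, 23 had enough counts, 21 rose and 1 fell. Their median was 1.22 (DMSO 0.15 over 18 tested there). The transcription factor STAT2 had 368, 374 and 430 CPM at 72 h, against 39.6, 39.5 and 45.98 CPM at 24 h, with every 72 h library above every 24 h library (log2 change 3.23 ± 0.072, adjusted p = 7.46e-19). The receptor chains rose less: IFNAR1 had 51.5 CPM at 72 h against 34.97 CPM at 24 h (log2 change 0.56) and IFNAR2 50.9 CPM at 72 h against 27.6 CPM at 24 h (0.89). IFNGR2, a chain of the interferon gamma receptor, had a log2 change of 2.23. The feedback inhibitors SOCS1 and SOCS3 rose by 1.26 and 1.73 on the log2 scale. In DMSO cells SOCS3 rose too, by 1.31 ± 0.31, and its changes did not differ detectably (0.43 ± 0.29, adjusted p = 0.227). SOCS2, a member that moved the other way, changed by -0.57.

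Among 9 interferon regulatory factors, 8 were tested and 7 rose, with a median of 1.85 (DMSO 0.404). IRF7, which drives interferon alpha genes, had 233, 251 and 286 CPM at 72 h, against 17.1, 14.3 and 15.7 CPM at 24 h (log2 change 4.02 ± 0.080, adjusted p = 1.63e-19). IRF1 had 241, 228 and 262 CPM at 72 h, against 130, 128 and 128 CPM at 24 h, a smaller change of 0.92, and its DMSO change was 0.404 ± 0.071. IRF8, a factor of monocyte and dendritic cell fate, had 4.36, 4.99 and 6.33 CPM at 72 h, against 0.9602, 0.772 and 1.004 CPM at 24 h, and 17.7% of its exon length is shared. IRF9 had 139 CPM at 72 h against 39.2 CPM at 24 h but shares 86.9% of its exon length. IRF3, which is activated by phosphorylation, did not pass, at a log2 change of -0.066.

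MHC class I genes, which present peptides to T cells, rose together. Of 20 genes of class I and antigen processing, 16 rose and 2 fell, with a median of 1.18 (DMSO 0.36). B2M, the light chain, had 2675 CPM at 72 h against 777 CPM at 24 h. The peptide transporter TAP1 had 400 CPM at 72 h against 119 CPM at 24 h. HLA-B had 2194, 2348 and 2343 CPM at 72 h, against 489, 479 and 488 CPM at 24 h, though HLA genes are near-identical copies whose counts are uncertain. The log2 change of HLA-B was 2.24 in ATRA cells and 1.56 ± 0.053 in DMSO cells. NLRC5, the class I transactivator, had 245 CPM at 72 h against 106 CPM at 24 h. The 2 that fell are chaperones of the endoplasmic reticulum, CALR (-1.44) and PDIA3 (-0.37), and PDIA3 shares 45.2% of its exon length. Class II genes stayed low: 6 of 12 were tested and 4 rose (median 1.09), led by the invariant chain CD74 with 19.6, 19.4 and 22.3 CPM at 72 h, against 0.498, 0.227 and 0.446 CPM at 24 h, while HLA-DRA had 1 count at 72 h and 0 at 24 h.

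Many cytokine and chemokine genes rose. Of 28 listed inflammatory cytokines 18 passed the filter on low counts and 17 rose, with a median of 3.63, and of 31 chemokines 16 passed and 14 rose, with a median of 3.28. These medians describe the genes with counts at 72 h. In DMSO cells the median was -0.35 over 15 cytokines and 1.105 over 8 chemokines.

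LIF (chr22:30234352-30257992), a cytokine of the interleukin 6 family, had 104, 105 and 131 CPM at 72 h, against 0.213, 0.318 and 0.297 CPM at 24 h (log2 change 8.67 ± 0.15, adjusted p = 2.53e-20). TNFSF15 (chr9:114784519-114806452), a ligand of the TNF family that costimulates T cells, had 126, 113 and 130 CPM at 72 h, against 0.0356, 0.0454 and 0 CPM at 24 h. Its counts summed to 8956 at 72 h and 2 at 24 h, a ratio of 4740 (exact 95% interval 1310 to 39100). LIF had counts in every 24 h library, TNFSF15 in 2 of the 3. IL1B, interleukin 1 beta, had 66.6, 51.3 and 73.5 CPM at 72 h, against 1.28, 1.64 and 1.45 CPM at 24 h. TNF had 86.02, 67.97 and 98.9 CPM at 72 h, against 9.67, 10.99 and 10.4 CPM at 24 h (log2 change 3.03 ± 0.11, adjusted p = 1.55e-15), and in DMSO cells it fell, by a log2 change of -1.36 ± 0.089; the changes differed by 4.39 ± 0.16, adjusted p = 3.72e-16. TNFSF10, the death ligand TRAIL, had 81.01, 64.7 and 107 CPM at 72 h, against 4.37, 4.86 and 4.61 CPM at 24 h. CSF1, the growth factor of macrophages, had a log2 change of 5.76.

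CXCL8 (chr4:73707727-73746140), which attracts neutrophils, had 1196, 1143 and 1474 CPM at 72 h, against 11.9, 11.3 and 13.4 CPM at 24 h (log2 change 6.699 ± 0.102, adjusted p = 4.12e-21). CXCL10, an interferon-responsive attractant of T cells, had 238, 215 and 329 CPM at 72 h, against 1.78, 2.09 and 1.75 CPM at 24 h, a log2 change of 7.13 beside 1.95 ± 0.21 in DMSO. CCL2, which attracts monocytes and has been tied to the differentiation syndrome of treated patients, had 1106, 951 and 1216 CPM at 72 h, against 119, 130 and 122 CPM at 24 h. Its log2 change was 3.14 in ATRA cells and -1.12 ± 0.15 in DMSO cells, a difference of 4.26 ± 0.16, adjusted p = 6.49e-16. CCL3 and CCL4 had log2 changes of 5.66 and 4.35, and share 98.3% and 90.4% of exon length. CCL23 was the 1 chemokine that fell, with 0.211 CPM at 72 h against 0.709 CPM at 24 h; its whole exon length is shared with another gene. CXCL1 and CXCL5 had no count at either time.

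**Figure D2:**
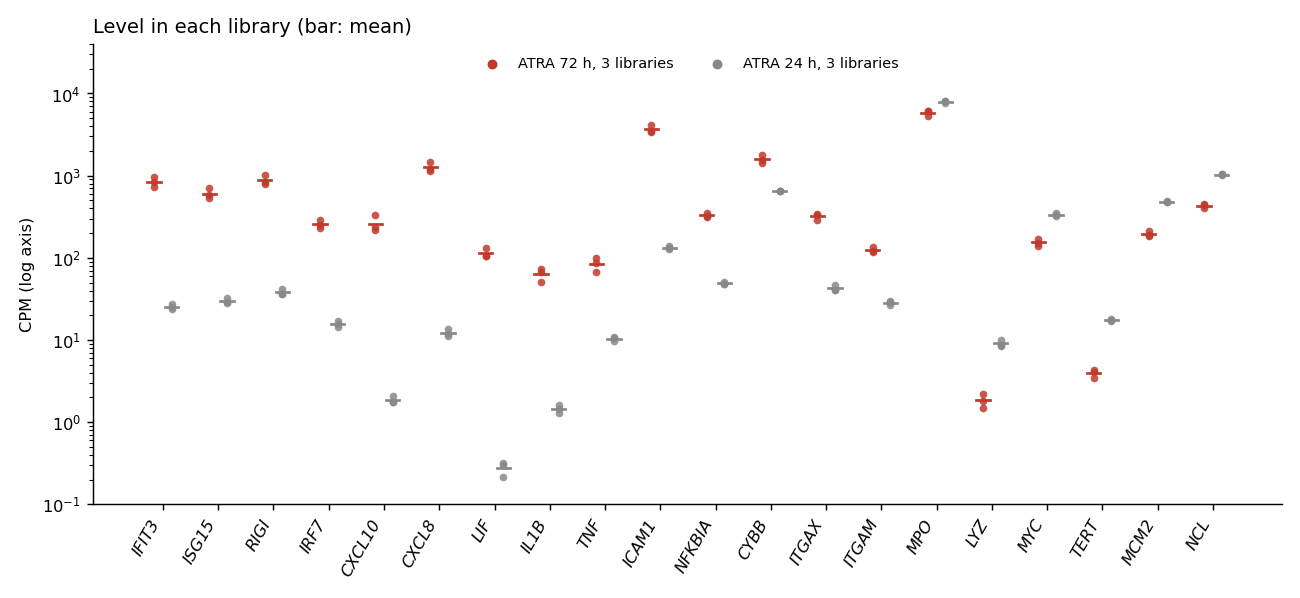
CPM on a log axis (y) in each library for 20 genes (x), ATRA 72 h libraries in red left of ATRA 24 h libraries in grey, 3 points each with the mean as a bar. No gene among the 20 has overlapping groups, as is so for 74.2% of all genes tested. LIF lies between 104 and 131 CPM at 72 h against 0.213 to 0.318 CPM at 24 h.

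Genes of the NF-κB pathway rose with the cytokines. NF-κB is held in the cytoplasm by IκB proteins, which are themselves NF-κB targets and close a feedback loop. Of 26 listed subunits and feedback genes 25 were tested, 21 rose and 1 fell, with a median of 1.55 (DMSO 0.050, with 11 higher and 8 lower). NFKBIA, which encodes IκB alpha, had 314, 323 and 353 CPM at 72 h, against 50.4, 48.3 and 48.2 CPM at 24 h (log2 change 2.75 ± 0.058, adjusted p = 3.03e-19). The largest rises were those of TRAF1 (4.69) and BIRC3 (4.02), which bind TNF receptor complexes, and of NFKBIZ (3.98) and BCL3 (3.397), nuclear IκB proteins. In DMSO cells TRAF1 and BIRC3 rose too, by 2.44 ± 0.14 and 2.05 ± 0.17. NFKBIZ changed there by 0.44 ± 0.11, and BCL3 did not pass (0.23 ± 0.22). TRAF2 fell, by a log2 change of -0.62. ICAM1 (chr19:10269654-10286870), the endothelial and leukocyte adhesion ligand of integrins, had 3390, 3507 and 4144 CPM at 72 h, against 138, 133 and 128 CPM at 24 h (log2 change 4.79 ± 0.080, adjusted p = 1.25e-20) and averaged 74.4 CPM at 72 h against 54.2 CPM at 24 h in DMSO cells.

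Promoters of NFKBIA (chr14:35404700-35404999, minus strand) and NFKBIZ (chr3:101827740-101828039, plus strand) are shown as the list members of smallest p that hold a kappa-B form, GGG, any 2 bases and TTTCC on either strand, in capitals.
NFKBIA: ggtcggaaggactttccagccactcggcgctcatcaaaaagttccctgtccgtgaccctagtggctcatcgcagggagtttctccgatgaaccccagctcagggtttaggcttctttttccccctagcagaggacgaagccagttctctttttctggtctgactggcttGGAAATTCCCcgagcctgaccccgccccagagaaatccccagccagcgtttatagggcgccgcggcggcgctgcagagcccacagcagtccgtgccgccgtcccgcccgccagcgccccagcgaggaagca
NFKBIZ: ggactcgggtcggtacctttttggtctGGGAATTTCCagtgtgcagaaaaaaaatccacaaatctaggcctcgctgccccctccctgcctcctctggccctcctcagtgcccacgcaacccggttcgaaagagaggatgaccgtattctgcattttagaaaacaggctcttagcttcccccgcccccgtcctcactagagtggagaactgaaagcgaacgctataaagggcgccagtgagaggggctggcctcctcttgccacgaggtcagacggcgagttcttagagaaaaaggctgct
The match began at -81 from the start in NFKBIA, in the letters of the other strand, and at -223 in NFKBIZ. Such a match was found for 11 of 22 genes of the list (50%), 2 of 12 chemokines (16.7%), 3 of 14 inflammatory cytokines (21.4%) and none of 26 mitosis genes, beside 635 of 27305 genes (2.33%). This form is 1 of several that the factor binds.

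AP-1 and EGR factors, products of immediate-early genes, rose too. All 19 were tested and 17 rose, 16 of them at least 2-fold, with a median of 3.23 (DMSO 0.39 over 17 tested there). EGR2 had 45.6, 49.9 and 45.9 CPM at 72 h, against 0.249, 0.4996 and 0.2602 CPM at 24 h, EGR3 a log2 change of 7.59, and JUN, an AP-1 subunit, 98.8, 123 and 114 CPM at 72 h, against 1.64, 1.86 and 1.75 CPM at 24 h. IER3, a small early-response protein, had 1186 counts at 72 h and 0 at 24 h, at least 418-fold higher on the same bound. The change of all 19 differed upwards from that in DMSO.

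Myeloid surface genes rose more than they fell. Of 51 listed receptors and integrins 47 were tested, 41 rose and 3 fell, with a median of 1.65 (DMSO 0.054 over 40 tested there). ITGAM, the alpha chain of complement receptor CR3 (CD11b) and a usual marker of NB4 maturation, had 117, 121 and 134 CPM at 72 h, against 29.3, 29.5 and 26.8 CPM at 24 h (log2 change 2.12 ± 0.065, adjusted p = 1.06e-16). ITGAX, CD11c, had 288, 333 and 346 CPM at 72 h, against 40.1, 41.01 and 46.5 CPM at 24 h. CSF3R, the receptor for granulocyte colony-stimulating factor, had 250, 285 and 253 CPM at 72 h, against 136, 132 and 130 CPM at 24 h, a change of under 2-fold that was clear of the spread. The Fc receptors FCGR2A and FCGR2B had log2 changes of 5.204 and 7.303, beside 2.33 ± 0.13 and 5.05 ± 0.31 in DMSO cells. FCGR3B had 708 counts at 72 h and 0 at 24 h, at least 250-fold higher. These 3 have near-identical relatives, so the split of counts among them is uncertain. PLAUR, the urokinase receptor, rose by 4.81. SELPLG, the selectin ligand PSGL-1, and ITGA4 went the other way, at -0.799 and -0.58.

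The phagocyte oxidase moved in part. Of its 10 genes 8 rose and none fell, with a median of 0.67, while in DMSO cells 6 fell and 1 rose (median -0.499). CYBB, the catalytic subunit gp91phox, had 1535, 1428 and 1778 CPM at 72 h, against 649, 649 and 658 CPM at 24 h. Its log2 change was 1.28 ± 0.067 in ATRA cells, and in DMSO cells it was -2.13 ± 0.072, with 63.8 CPM at 72 h against 278 CPM at 24 h. The 2 changes differed by 3.403 ± 0.11, adjusted p = 2.59e-17. NCF1, p47phox, rose by 2.16 but has near-identical pseudogenes. CYBA, the other membrane subunit, rose by 0.18, and NCF4 and RAC1 did not pass.

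Granule genes split. Azurophil granules are the primary granules that promyelocytes fill with proteases and antimicrobial proteins. Of 19 tested azurophil genes 12 fell and 7 rose, with a median of -0.44 (DMSO 0.28). MPO had 6090, 6160 and 5296 CPM at 72 h, against 8138, 8008 and 7670 CPM at 24 h (log2 change -0.44 ± 0.067, adjusted p = 6.14e-06), a modest fall that was larger than the spread. CTSG (chr14:24573522-24576932), cathepsin G, had 0.325, 0.702 and 0.117 CPM at 72 h, against 7.18, 7.18 and 7.58 CPM at 24 h (log2 change -4.23 ± 0.27, adjusted p = 1.15e-11), whereas in DMSO cells it rose, by a log2 change of 0.97 ± 0.066. CST7, an inhibitor of cysteine proteases, had 0.928, 1.05 and 0.508 CPM at 72 h, against 12.9, 12.1 and 12.9 CPM at 24 h, the largest fall under the naming rule. LYZ, lysozyme, had 1.81, 1.48 and 2.23 CPM at 72 h, against 8.78, 9.99 and 8.44 CPM at 24 h (log2 change -2.29 ± 0.16, adjusted p = 4.21e-11), with -1.26 for PRTN3. Against these, BPI, a protein that kills Gram-negative bacteria, had 197, 240 and 201 CPM at 72 h, against 33.1, 31.2 and 28.8 CPM at 24 h. Its change of 2.78 did not differ detectably from that in DMSO (2.13 ± 0.42; difference 0.63 ± 0.49, adjusted p = 0.294), where it averaged 0.777 CPM at 72 h against 0.192 CPM at 24 h. SERPINB10 rose by 6.61, with 31.6% of its exon length shared, and the alpha-defensins DEFA1 and DEFA3 by 1.51 and 1.46, near-identical copies whose split is uncertain.

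Genes of the later, specific and gelatinase granules were mostly low. Of 24 listed, 15 were tested, 9 rose and 4 fell, with a median of 0.82 (DMSO -0.016 over 9 tested there). MMP9, the gelatinase, had 74.5, 70.04 and 107 CPM at 72 h, against 36.2, 42.4 and 35.4 CPM at 24 h. LTF, lactoferrin, had 0.638 CPM at 72 h against 0.0749 CPM at 24 h, OLFM4 had 15.3 CPM at 72 h against 0.0835 CPM at 24 h, and CAMP had 0.186 CPM at 72 h against 0.322 CPM at 24 h. LCN2 had 2 counts at 72 h and 0 at 24 h, and PGLYRP1 none at either time. ARG1 had 98 counts at 72 h and 0 at 24 h, at least 34.6-fold higher, and HP, haptoglobin, had 0 at 72 h and 94 at 24 h, at least 29.6-fold lower, with 29.7% of its exon length shared.

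Among markers of neutrophils 9 of 11 tested rose, of which FCGR3B and S100A12 had no count at 24 h, with CXCR2 and PADI4 not passing and the defining genes ALPL, PGLYRP1, CXCR1, CAMP, CEACAM8 and CD177 at or near 0. Their summed level was 601.3 to 664.7 CPM at 72 h and 326.4 to 330.4 CPM at 24 h. Of 18 markers of monocytes and macrophages 10 were tested, 8 rose and 1 fell, and the sum was 390.3 to 448.7 CPM at 72 h and 94.52 to 106 CPM at 24 h. CD86, a costimulator of T cells, had 30.5, 27.2 and 33.97 CPM at 72 h, against 0.854, 0.5904 and 0.557 CPM at 24 h. FCN1, ficolin of monocytes, fell to 0.4197 CPM at 72 h, against 6.51 CPM at 24 h. CD14 had 35 counts at 72 h and 3 at 24 h, and MRC1, MSR1, C1QB and C1QC had none. Markers of eosinophils, basophils and mast cells summed to 345.7 to 380.9 CPM at 72 h and 515.7 to 551.2 CPM at 24 h (5 of 10 tested higher, 4 lower), with CLC, the Charcot-Leyden crystal protein, at 43.1 CPM at 72 h against 2.27 CPM at 24 h. Erythroid and megakaryocyte markers summed to 64.07 to 76.12 CPM at 72 h and 6.131 to 8.464 CPM at 24 h. At 72 h most of it was ITGB3, with 59.7 CPM at 72 h against 0.642 CPM at 24 h; HBA1 and PF4 had no counts. Lymphocyte markers summed to 370.7 to 399.1 CPM at 72 h and 146.3 to 148.5 CPM at 24 h (5 of 7 tested higher, 1 lower), including NKG7 (99.9% of exon length shared) and CD4, while CD2 and MS4A1 had none and CD3E had 3 counts at each time. Epithelial and fibroblast markers summed to 35.26 to 37.87 CPM at 72 h and 26.85 to 29.21 CPM at 24 h (3 of 4 tested higher, 1 lower), with KRT19, PDGFRA and LUM at 0. The part of other cell types in these results was not tested.

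Pattern receptors and lineage factors followed. Of 16 tested Toll-like receptors and adaptors 14 rose, with a median of 1.15 (DMSO -0.23). They were led by TLR10 (5.86), TLR1 (4.201) and TLR6 (3.36), which share 91.9%, 53.5% and 41.7% of exon length with neighbours, and by the adaptor MYD88 (2.07); IRAK1 fell (-0.497). Of 31 myeloid transcription factors tested 21 rose and 7 fell, with a median of 1.04 (DMSO 0.28). SPI1, the PU.1 factor, had 220, 234 and 233 CPM at 72 h, against 144, 142 and 134 CPM at 24 h (log2 change 0.71 ± 0.051, adjusted p = 9.95e-11), with 32% of its exon length shared. CEBPE, the C/EBP factor of late granulocyte maturation, was lower, with 252, 271 and 262 CPM at 72 h, against 336, 322 and 305 CPM at 24 h (log2 change -0.296 ± 0.052, adjusted p = 3.72e-05). CEBPA fell by 1.64 on the log2 scale and MYB, a factor of progenitors, fell by 1.04. TERT, the catalytic subunit of telomerase, had 4.32, 4.13 and 3.44 CPM at 72 h, against 17.9, 17.1 and 17.5 CPM at 24 h. In DMSO cells TERT had a log2 change of 0.52 ± 0.069, and the changes differed by -2.67 ± 0.12, adjusted p = 1.13e-14. Of 13 tested stem and progenitor genes 6 fell and 4 rose, with a median of -0.18 (DMSO 0.28).

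Most listed retinoid genes, a group known to answer ATRA within hours, were higher at 72 h than at 24 h. Of 22 tested members of retinoid metabolism and direct targets 18 rose and 3 fell, with a median of 1.697 (DMSO 0.21 over 17 tested there). TGM2, tissue transglutaminase, had 1900, 1845 and 2306 CPM at 72 h, against 404, 410 and 396 CPM at 24 h (log2 change 2.32 ± 0.073, adjusted p = 1.59e-16). RARB, a receptor that is itself a retinoid target, had 3.43, 4.21 and 3.51 CPM at 72 h, against 0.9602, 0.727 and 1.11 CPM at 24 h. DHRS3, a retinaldehyde reductase, had 184, 193 and 191 CPM at 72 h, against 69.5, 64.4 and 66.2 CPM at 24 h (log2 change 1.505 ± 0.052, adjusted p = 9.30e-16). DHRS3 and TGM2 were also higher at 72 h than at 24 h in DMSO libraries, at far lower levels, and RARB had too few counts there for a test. DHRS3 had 10.3, 13.4 and 12.8 CPM in DMSO cells at 72 h, against 1.61, 1.81 and 1.099 CPM at 24 h, so its log2 change was larger there (3.03 ± 0.17; difference -1.53 ± 0.16, adjusted p = 2.97e-08). TGM2 had 10.1, 7.25 and 2.202 CPM in DMSO cells at 72 h, against 2.52, 2.04 and 2.04 CPM at 24 h. For TGM2 the changes did not differ detectably (0.75 ± 0.37, adjusted p = 0.0935), but without replicate 2 of DMSO at 72 h the log2 difference of changes of TGM2 passed (1.2, adjusted p = 0.00231), as it did with no filter on low counts (adjusted p = 1.24e-07). RARB had 1.14, 0.0405 and 0 CPM in DMSO cells at 72 h, the first being that same library. CYP26A1, the hydroxylase that clears retinoic acid, had 0.789, 0.273 and 0.547 CPM at 72 h, against 0.356, 0.318 and 0.5203 CPM at 24 h and did not pass (log2 change 0.39 ± 0.42, adjusted p = 0.423); within lane 3 the log2 change of CYP26A1 was -0.058. CYP26B1, its relative, rose by 3.24, and ASB2, an early target in this leukaemia that serves a ubiquitin ligase, by 3.06. CD38, a surface enzyme that consumes NAD, had 325, 319 and 324 CPM at 72 h, against 256, 245 and 260 CPM at 24 h, a small rise of 0.35. RDH10, which makes retinaldehyde, fell (-1.62).

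Genes of cell division fell in a body. All 36 replication and S phase genes tested were lower at 72 h (background 35.7% lower), 27 of them at least 2-fold, with a median of -1.14. Of 32 mitosis genes 31 were lower, with a median of -0.81, of 28 replication-dependent histone genes tested 27 were lower (median -1.104), and of 24 DNA repair genes 22 were lower and 2 higher (median -0.87). The DMSO cells also moved down between these times, with medians of -0.64 (33 of 36 lower), -0.26 (21 of 32 lower), -0.76 (26 of 28 lower) and -0.46 (19 of 24 lower). The ATRA change was the more negative one for 27 of 36 replication genes and 27 of 32 mitosis genes (background 28%), and the less negative one for 3 replication genes.

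MCM2 (chr3:127589050-127622760), a subunit of the replicative helicase, had 210, 188 and 187 CPM at 72 h, against 483, 488 and 472 CPM at 24 h (log2 change -1.301 ± 0.055, adjusted p = 1.78e-14). In DMSO cells its log2 change was -0.54 ± 0.046, and the difference was -0.76 ± 0.072, adjusted p = 4.75e-09. RRM2, the ribonucleotide reductase subunit that limits nucleotide supply in S phase, had 82.6, 75.3 and 80.1 CPM at 72 h, against 169, 172 and 172 CPM at 24 h. It fell further in DMSO cells (-1.43 ± 0.059) than in ATRA cells (-1.11), a difference of 0.33 ± 0.074, adjusted p = 7.28e-04. MKI67, the proliferation antigen Ki-67, had 239, 214 and 236 CPM at 72 h, against 343, 343 and 364 CPM at 24 h (log2 change -0.61 ± 0.054, adjusted p = 2.50e-09). Its DMSO change was -0.63 ± 0.048, and no difference between the changes was detected (0.018 ± 0.074, adjusted p = 0.865). The DMSO level of RRM2 was lowest at 72 h of the last 3 times, averaging 158, 58.5 and 146 CPM at 24, 72 and 120 h. The largest falls of the replication list were those of UHRF1, a reader of hemimethylated DNA (-1.73), and CCNE1, cyclin E (-1.55). In DMSO cells UHRF1 and CCNE1 had log2 changes of -1.52 ± 0.070 and -0.93 ± 0.14. The changes of UHRF1 did not differ detectably (-0.21 ± 0.095, adjusted p = 0.0741), and those of CCNE1 did (-0.63 ± 0.21, adjusted p = 0.0166). Among mitosis genes the largest falls were those of CDC20, an activator of the anaphase-promoting complex (-1.41), and BIRC5, survivin (-1.39). Among repair genes it was that of UNG, uracil glycosylase (-1.54). The histone genes H4C8 and H4C3 had log2 changes of -1.85 and -1.82, and H4C3 shares 68.5% of its exon length. Histone genes are close copies, and their individual counts are uncertain.

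Promoters of CDC20 (chr1:43358731-43359030, plus strand) and PLK1 (chr16:23678639-23678938, plus strand), the mitosis genes of smallest p with a match, are shown with the cell cycle genes homology region form TTTGAA on either strand in capitals, an element that the DREAM and MuvB complexes bind.
CDC20: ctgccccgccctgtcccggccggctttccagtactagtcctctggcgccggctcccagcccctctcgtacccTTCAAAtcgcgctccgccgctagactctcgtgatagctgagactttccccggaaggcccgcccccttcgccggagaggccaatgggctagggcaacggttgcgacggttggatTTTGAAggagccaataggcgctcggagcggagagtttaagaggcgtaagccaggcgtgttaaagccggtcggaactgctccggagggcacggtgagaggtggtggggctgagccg
PLK1: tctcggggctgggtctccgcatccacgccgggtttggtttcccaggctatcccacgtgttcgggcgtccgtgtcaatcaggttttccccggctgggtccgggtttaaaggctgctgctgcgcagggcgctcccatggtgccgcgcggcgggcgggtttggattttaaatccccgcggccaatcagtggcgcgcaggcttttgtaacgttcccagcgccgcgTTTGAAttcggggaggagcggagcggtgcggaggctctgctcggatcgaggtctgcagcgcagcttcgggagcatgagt
The match in PLK1 began at -29 from the start, and CDC20 had 2, the nearer at -65. It was found in 18 of 26 mitosis genes (69.2%), 1 of 31 replication genes (3.23%) and 5 of 33 interferon-stimulated genes (15.2%), beside 4961 of 27305 genes (18.2%). Of the mitosis genes with a promoter in the table, none held either of the motifs searched for above.

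Inhibitors of the cell cycle were mixed. Of 21 tested 15 rose and 4 fell, with a median of 0.75 (DMSO 0.30 over 20 tested there). CDKN1A, which encodes the CDK inhibitor p21, had 16.3, 17.1 and 15.7 CPM at 72 h, against 0.427, 0.5904 and 0.966 CPM at 24 h (log2 change 4.62 ± 0.17, adjusted p = 2.28e-15) and did not pass in DMSO (-0.203 ± 0.23). BTG2, an antiproliferative early-response gene, had 177, 129 and 157 CPM at 72 h, against 1.600, 1.95 and 2.23 CPM at 24 h. RBL1 and CDKN2C fell, by 0.896 and 0.56 on the log2 scale. Of 11 G1 cyclins and kinases 9 fell, with a median of -0.54 (DMSO -0.51, with 9 lower), among them CDC25A (-1.34) and CDK4 (-1.28), and CCND1, cyclin D1, rose (0.79).

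Genes of ribosome production fell too. MYC, the transcription factor that drives ribosome production, had 168, 153 and 140 CPM at 72 h, against 334, 350 and 323 CPM at 24 h (log2 change -1.13 ± 0.061, adjusted p = 9.91e-13), and in DMSO cells it rose, by a log2 change of 0.64 ± 0.048; the changes differed by -1.77 ± 0.082, adjusted p = 2.57e-14. All 32 ribosome biogenesis genes were lower, 27 at least 2-fold (background 9.79%), with a median of -1.303, beside -0.603 in DMSO with 30 lower. The ATRA change was the more negative one for 30 of 32. NCL, nucleolin, had 447, 405 and 435 CPM at 72 h, against 1034, 1005 and 1055 CPM at 24 h. Its log2 change was -1.27 in ATRA cells and -0.74 ± 0.046 in DMSO cells. The largest fall was that of BOP1, a factor of the large subunit (-1.91; 24.6% of exon length shared), followed by RRS1, NOP56 and MYBBP1A between -1.85 and -1.71.

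Cytosolic ribosomal proteins went opposite ways with and without ATRA. In ATRA cells 30 of 32 were lower at 72 h and 2 higher, with a median of -0.47, while in DMSO cells 31 of 32 were higher, with a median of 0.37. The difference passed for 31 of 32, all downwards. RPL6 had 624, 608 and 588 CPM at 72 h, against 1164, 1209 and 1173 CPM at 24 h, and RPLP0, the stalk protein, 1502, 1529 and 1294 CPM at 72 h, against 2586, 2709 and 2557 CPM at 24 h. RPS19 and RPS27 were the 2 that rose, by 0.21 and 0.17, and the call of RPS27 was lost with all 33 libraries in the fit, with the 15 ATRA libraries, and within lane 3.

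Translation and folding genes fell with them. Of 20 aminoacyl-tRNA synthetases 15 fell and 4 rose (median -0.71, DMSO 0.31). CARS1 was 1 that rose, by 0.74, and it did so in DMSO cells as well (0.99 ± 0.058). WARS1, the tryptophanyl enzyme known to answer interferon, was another, with 404, 408 and 445 CPM at 72 h, against 174, 185 and 187 CPM at 24 h. Of 20 heat shock proteins and chaperonins 16 fell and none rose (median -1.09, DMSO -0.62). HSPA8, the constitutive HSC70, had 917, 660 and 861 CPM at 72 h, against 3174, 3269 and 3338 CPM at 24 h (log2 change -2.005 ± 0.087, adjusted p = 3.15e-14). Its change in DMSO cells was -1.97 ± 0.056, and no difference between the changes was detected (-0.035 ± 0.11, adjusted p = 0.827). Of 25 tested genes that answer amino acid lack or unfolded proteins 10 rose and 12 fell (median -0.082), while in DMSO cells 16 rose and 8 fell (median 0.52). Those that rose with ATRA included ATF3 (3.07), TRIB3 (2.17) and DDIT3 (2.05), which the kinases of the stress response turn on through ATF4. In DMSO cells they rose too, by 1.34 ± 0.13, 1.86 ± 0.060 and 1.41 ± 0.089.

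Metabolic genes divided by pathway. Cholesterol synthesis and uptake rose: 20 of 23 tested were higher and 2 lower, with a median of 1.13, and so did 19 of 23 in DMSO (median 0.72). HMGCS1, the synthase of HMG-CoA, had 731, 660 and 841 CPM at 72 h, against 149, 153 and 140 CPM at 24 h. ABCA1, the cholesterol exporter and a target of the liver X receptors, had 557, 631 and 646 CPM at 72 h, against 72.8, 71.1 and 72.9 CPM at 24 h, so genes of synthesis and of efflux were both higher. Glycolysis and hypoxia genes rose in 27 of 29 tested (median 0.96, DMSO 0.64 with 21 of 27 higher). SLC2A3, the glucose transporter GLUT3, had 478, 680 and 516 CPM at 72 h, against 7.504, 9.401 and 9.07 CPM at 24 h, and the isoenzymes ENO2 and ALDOC had log2 changes of 6.43 and 4.13. In DMSO cells these 2 rose as well, by 4.58 ± 0.098 and 4.68 ± 0.079, and for ALDOC the change was the larger one there (difference -0.55 ± 0.12, adjusted p = 6.42e-04). ADM, the peptide adrenomedullin, rose by 6.52.

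Respiratory chain genes fell. Of 30 nuclear genes of oxidative phosphorylation 27 were lower and 1 higher (median -0.52, DMSO -0.18), and of 13 mitochondrial ones 12 were lower (median -0.82). In DMSO cells 11 mitochondrial genes were lower, with a median of -0.87, and the changes differed for 1 of 13. Mitochondrial gene models overlap and their split is uncertain. Of 30 lysosome and autophagy genes 24 rose and 4 fell (median 1.11, DMSO 0.17). SQSTM1, the autophagy receptor p62, had 1120, 1248 and 1289 CPM at 72 h, against 169, 171 and 164 CPM at 24 h, and TFEB, a transcription factor of lysosomal genes, 14.8, 17.2 and 16.6 CPM at 72 h, against 3.34, 2.95 and 2.79 CPM at 24 h. GLA and LAMP1 were lower, at -0.45 and -0.399.

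Survival genes moved in both senses. Of 14 tested BCL2 family genes 11 rose and 2 fell, with a median of 0.496 (DMSO 0.25). Members that block apoptosis rose, BCL2A1 by 3.45 and MCL1 by 2.26, and so did members that promote it, BBC3 (PUMA) by 3.62 and BMF by 2.22. BCL2 itself had 4.41, 4.37 and 4.29 CPM at 72 h, against 13.3, 14.1 and 14.2 CPM at 24 h. Of 22 tested death receptors and caspases 19 rose, with a median of 0.86 (DMSO -0.17). TNFRSF10B and TNFRSF10D, a death receptor and a decoy receptor for TRAIL, rose by 2.87 and 3.59, and CASP1 by 1.78. AIM2, a sensor of cytosolic DNA, had 221 counts at 72 h and 0 at 24 h, at least 78-fold higher. CASP6 fell, by 0.87 on the log2 scale, and FADD, an adaptor of death receptors, by 0.16, a call that several alternatives lost.

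Among called protein-coding genes with an average log2 CPM of at least 1 over the 6 libraries and no overlap between the times, the largest rises were, after TNFSF15 and LIF, those of IFI44L, HCAR1, IFI27, SPP1, FLT1, AQP9, DCSTAMP and IFI44, with log2 changes from 7.99 to 8.52. SPP1 (chr4:87975084-87983426), osteopontin, a secreted ligand of integrins, had 2546, 2554 and 3130 CPM at 72 h, against 8.93, 9.58 and 10.04 CPM at 24 h. FLT1, a receptor for vascular endothelial growth factor, had 154, 159 and 179 CPM at 72 h, against 0.498, 0.545 and 0.669 CPM at 24 h, and DCSTAMP, a membrane protein needed for fusion of osteoclasts, 110, 93.9 and 140 CPM at 72 h, against 0.533, 0.409 and 0.335 CPM at 24 h. AQP9, an aquaporin of leukocytes that also carries glycerol, had 69.9, 66.9 and 93.8 CPM at 72 h, against 0.498, 0.182 and 0.112 CPM at 24 h. HCAR1, the lactate receptor, shares 36.7% of its exon length. IER3, FCGR3B, AIM2 and ZBP1, with fewer counts, lay under that average. The largest falls by the same rule after CST7 were those of TAF9B, MTARC1, PHACTR3, STEAP3, PTPN3, CCDC78, PYCR3, SMIM10 and DES, from -2.85 to -2.34. STEAP3, an endosomal ferrireductase, had 6.26, 4.64 and 4.14 CPM at 72 h, against 33.4, 31.02 and 27.6 CPM at 24 h, and PYCR3, an enzyme of proline synthesis, 4.08, 3.67 and 3.08 CPM at 72 h, against 18.4, 17.9 and 19.3 CPM at 24 h. Each of the 10 rises exceeded 254-fold, and the 10 falls were at most 15.3-fold. Larger falls lay under that average too, such as those of CTSG (18.8-fold) and HP (at least 29.6-fold).

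**Figure D3:**
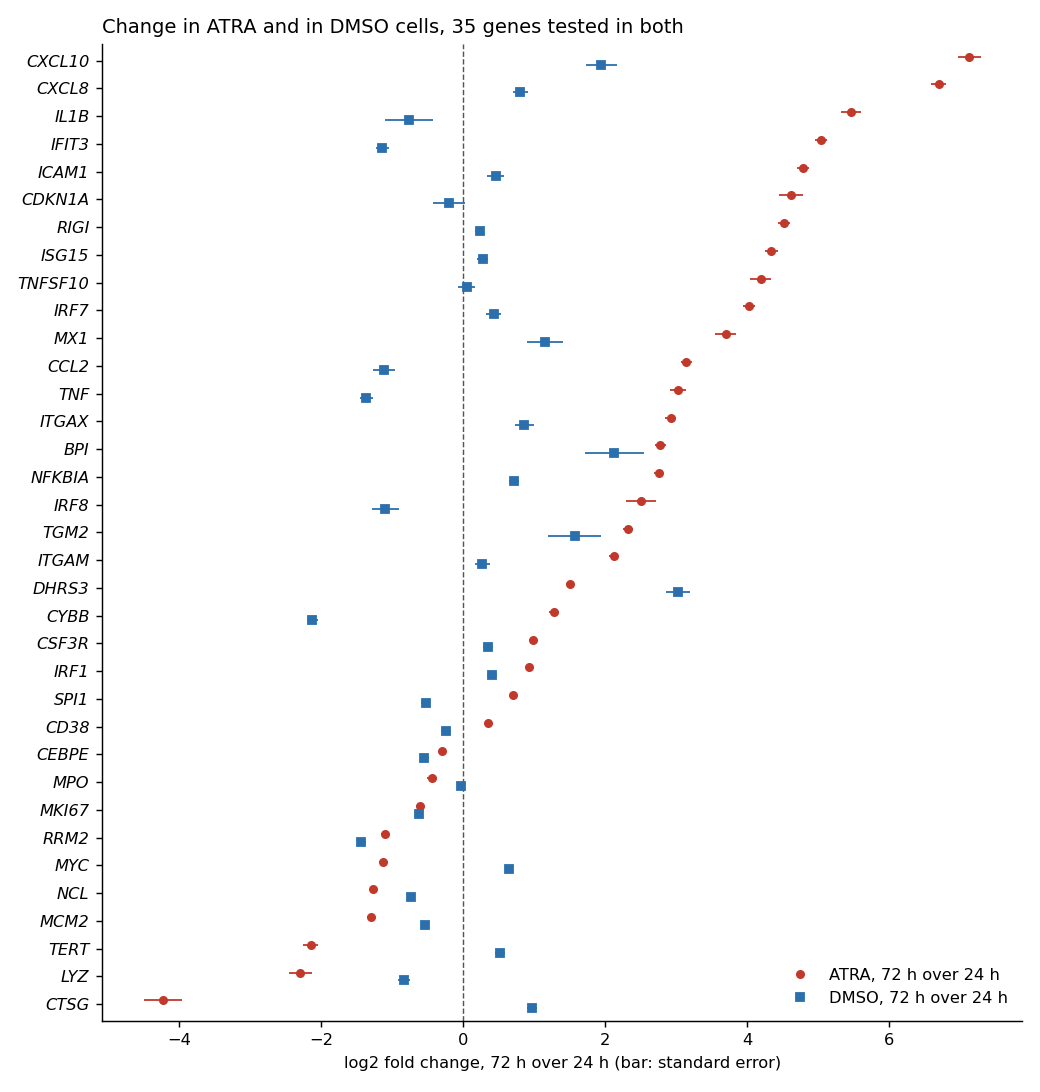
Log2 fold change of 72 h over 24 h (x axis, bars are standard errors) in ATRA cells (red circles) and, below each, DMSO cells (blue squares) for core genes tested in both, ordered by the ATRA change. CXCL10 leads at 7.13 in ATRA and 1.95 in DMSO, the points of MKI67 lie side by side, and DHRS3 has the larger change in DMSO.

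Among the ATRA time points, the level at 24 h was the lowest for CXCL8, TNF and ICAM1. The libraries of 0, 4 and 12 h were all in lane 4, and those of 24, 72 and 120 h in lanes 2 and 3. Differences between these sets of times cannot be told apart from lane. CXCL8 averaged 146 CPM in untreated cells, and 17.1, 13.4, 12.2, 1271 and 3591 CPM at 4, 12, 24, 72 and 120 h of ATRA. TNF averaged 314 CPM in untreated cells, above every ATRA group, and 10.4, 84.3 and 109 CPM at 24, 72 and 120 h of ATRA. In DMSO cells TNF and CXCL8 were also below their untreated level at every time. At 4, 12, 24, 72 and 120 h of DMSO, TNF averaged 57.8, 43.9, 49.8, 19.4 and 85.3 CPM. CXCL8 averaged 19.45, 20.3, 24.7, 42.9 and 66.5 CPM there. In ATRA cells ICAM1 had an early peak, with 536 CPM at 4 h, 133 at 24 h and 3680 at 72 h. IFIT3 averaged 10.4 CPM in untreated cells and 18.3, 15.3 and 25.5 CPM at 4, 12 and 24 h of ATRA. It stood at 1891 ± 151 CPM at 120 h (SD, n = 3).

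**Figure D4:**
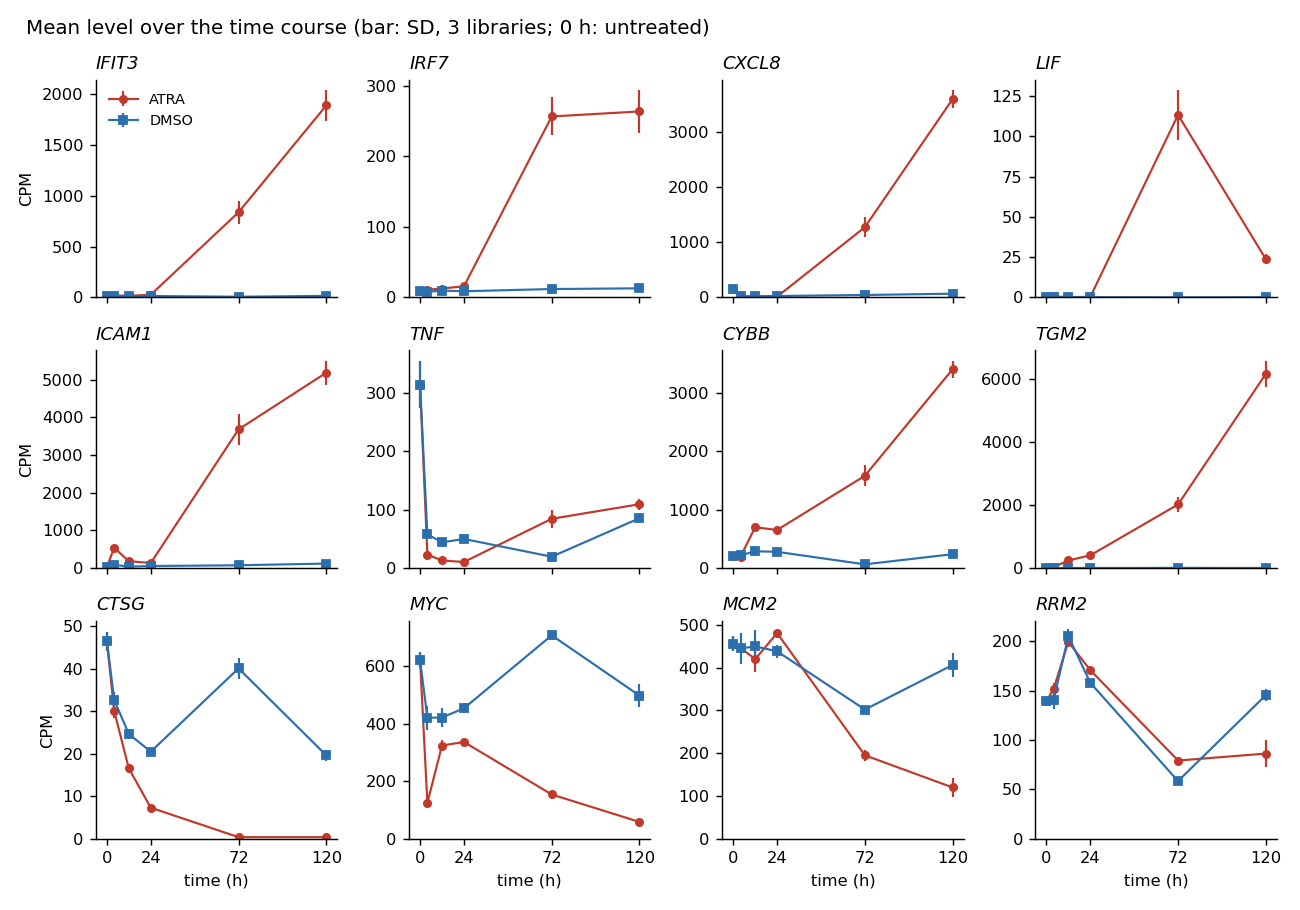
Mean CPM (y, linear from 0; bars are SD of 3 libraries) against time in h (x) for 12 genes, in ATRA (red) and DMSO (blue), both starting from the untreated cells at 0 h. Libraries of 0, 4 and 12 h were in lane 4, and later ones in lanes 2 and 3. At 72 h the ATRA mean of CXCL8 is 1271 CPM and its DMSO mean 42.9 CPM. LIF peaks at 72 h with 113 CPM, and RRM2 is lower at 72 h than at 24 h in both treatments.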

How the data were processed

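NB4 cells were profiled by stranded total RNA sequencing, 150 bp read pairs per the labels' protocols, in 33 libraries, of which the 6 ATRA libraries of 72 h and 24 h are compared here. The authors deposited raw counts of fragments per gene, which featureCounts 1.5.1 made with strand taken into account, per the file headers. Fragments in several genes at once count for all of them. Gene models merged Ensembl and FANTOM CAT annotation on GRCh38, which lengthens exons, so levels are not compared between genes. The submitters' processing notes name Trimmomatic 0.36, STAR 2.5.2b and Subread 1.5.1. In all, 85160 genes are listed. Symbols came from GENCODE 29.

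edgeR 4.0.16 in R 4.3.3 (glmQLFit, glmQLFTest) tested the counts of the 6 ATRA libraries, filterByExpr, with TMM factors from all 33 libraries. P-values were adjusted by Benjamini-Hochberg over all genes tested, with a threshold of 0.05. The error after ± of a log2 change is the standard error implied by the F statistic. The same test was run on the DMSO libraries, and on the difference of the changes in 12 libraries. DESeq2 1.42.0 and limma 3.58.1 served as alternatives. Scripts were tested on simulated data. No replicate block was used, because the labels state none. Deviations from the group means of replicates with the same number correlated at -0.0077, -0.0091 and -0.0038. These values are over all genes tested, low counts included, and cannot show that pairing is absent.

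Named genes were 40 core genes, the 10 largest rises and 10 largest falls among called protein-coding genes with an average log2 CPM of at least 1 and no overlap between the times, and up to 4 members of largest change per list, plus up to 2 against its majority. Some genes that this rule takes in are not reported here. Other list members were named for their role after their values were seen. The lists and members were chosen with earlier results of these data known. A gene at 0 in a group is bounded against 3 counts over the group, and ratios with 1 to 3 counts carry exact 95% intervals; both cover counting error only. Promoters are RefSeq's, matched by symbol.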

Additional observations from a re-analysis of the deposited data

Results flagged for a closer look

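For the core genes given here the change between 24 h and 72 h differed between ATRA and DMSO cells, by edgeR's quasi-likelihood test of the difference of the log2 changes (ATRA minus DMSO) in a model of 12 libraries, with an adjusted p under 0.05. The share of all genes that passed was 52.3%, so this alone sets no gene apart. Among antiviral genes the difference was 6.18 for IFIT3, 4.29 for RIGI, 4.07 for ISG15 and 2.55 for MX1. Interferon regulatory factors gave 3.61 for IRF8, 3.602 for IRF7 and 0.52 for IRF1. Cytokines and chemokines gave 9.31 ± 1.08 for LIF, 6.26 for IL1B, 5.89 for CXCL8, 5.17 for CXCL10, 4.39 for TNF, 4.26 for CCL2 and 4.14 for TNFSF10. In DMSO cells LIF averaged 0.124 CPM at 24 h and 0.068 CPM at 72 h, too few counts for a test of the DMSO change. The size of its difference is therefore uncertain. NF-κB targets gave 4.34 for ICAM1 and 2.03 for NFKBIA.

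Maturation genes gave 3.403 for CYBB, 2.07 for ITGAX, 1.85 for ITGAM, 1.24 for SPI1, 0.64 for CSF3R, 0.59 for CD38 and 0.26 for CEBPE. CEBPE was lower at 72 h in both treatments, and less so in ATRA. CYBB, TNF, CCL2, IFIT3, IRF8, SPI1 and CD38 moved in opposite directions, higher at 72 h in ATRA cells and lower at 72 h in DMSO cells. Granule genes gave -5.201 for CTSG, -1.46 for LYZ and -0.41 for MPO. Growth genes gave 4.82 for CDKN1A, -2.67 for TERT, -1.77 for MYC, -0.76 for MCM2, -0.53 for NCL and 0.33 for RRM2. DHRS3, a retinoid target, gave -1.53, the change being larger in DMSO cells. CTSG, MYC and TERT fell in ATRA cells and rose in DMSO cells.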

How the results depend on the processing

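Counts of called genes stayed within 1.5 times the reported one under every setting tried. For ATRA 72 h against 24 h they ran from 12998 within lane 3 to 15102 with no filter on low counts, with 13942 under RLE size factors, 13087 with DESeq2 and 13961 with limma-voom, and 13525 to 13768 with a library left out. RLE size factors moved the median of all genes to 0.055 and the split to 7521 higher and 6421 lower. With a replicate block, which the main fit did not have, 13984 genes passed, and 11670 and 11170 for the DMSO change and the difference. With a library left out those 2 gave 10716 to 11787 and 10278 to 10967.

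Of 2757 values of named-gene changes under other settings 2747 kept direction and call, 9 lost the call (FADD under 6 settings, RPS27 under 3) and 1 reversed: the log2 change of CYP26A1, which had not passed, was -0.058 within lane 3. The log2 difference of changes of RARB, not passing, was 0.043 with limma-voom and ran from -4.23 to 1.44 with a library left out, the highest without replicate 2 of DMSO at 72 h. The log2 difference of changes of MKI67, also not passing, ran from -0.012 to 0.066. The log2 difference of changes of CEBPE lost its call with all 33 libraries in the fit (adjusted p = 0.072). The causes were not tested. Of 1054 list counts 1042 were within 1.5 times, the other 12 being counts of at most 4 genes. The log2 difference of changes of CYP26A1 passed with all 33 libraries in the fit (adjusted p = 0.0449) and without replicate 4 of ATRA at 72 h (0.0299). Counts limit the genes near 0, such as the interferons, to the bounds and intervals given.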

Other observations

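Other secreted and membrane systems moved between 24 h and 72 h of ATRA. Of 12 tested genes of coagulation and fibrinolysis 10 rose and 1 fell (median log2 change 2.299, DMSO 0.041). SERPINB2, an inhibitor of plasminogen activators, had 94.5, 91.7 and 116 CPM at 72 h, against 0.391, 0.908 and 0.5203 CPM at 24 h, while the activator PLAU changed by -0.24. SERPINA1, alpha-1 antitrypsin, rose by 3.69. Of 13 tested prostaglandin and leukotriene genes 9 rose and 3 fell (median 0.96, DMSO -0.17 over 10 tested there). PTGES, the prostaglandin E synthase, had 299, 361 and 323 CPM at 72 h, against 9.39, 11.1 and 9.37 CPM at 24 h, and LTC4S, the leukotriene C4 synthase, fell (-2.22). Of 13 S100 and annexin genes 7 rose and 3 fell (median 0.216, DMSO -0.217 over 12 tested there). S100A8 was at 1.65 and S100A9, its partner in calprotectin, at 1.39, and S100A12 had 34 counts at 72 h and 0 at 24 h.

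Of 19 tested iron and antioxidant genes 12 fell and 5 rose (median -0.296). In DMSO cells 11 fell and 6 rose (median -0.248), nearly the same. FTH1, the ferritin heavy chain, and SOD2, the manganese superoxide dismutase, rose by 1.65 and 1.46, and PRDX1 and NQO1 had log2 changes of -1.57 and -1.49. Of 26 chromatin regulators 16 rose and 9 fell (median 0.16, DMSO 0.036 with 9 higher and 8 lower). KDM6B, a histone H3 demethylase, was at 1.69, TET2 at 1.38 and EZH2, the Polycomb methyltransferase, at -1.14. Of 12 tested genes of cholesterol efflux and LXR targets 10 rose and 2 fell (median 0.66, DMSO 0.205 with 7 higher and 3 lower). All 7 tested promyelocyte markers were lower, -0.44 in median (DMSO -0.034, with 3 higher and 2 lower), including GFI1 (-0.44) and CD33 (-0.38).

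Some genes did not keep their 72 h level. LIF averaged 113 ± 15.4 CPM at 72 h and 23.7 ± 2.900 CPM at 120 h of ATRA (SD, n = 3 each). LYZ averaged 9.07, 1.84 and 30.5 CPM at 24, 72 and 120 h, and MPO 7939, 5848 and 422 CPM. IRF8 averaged 0.912, 5.23 and 76.2 CPM. CYBB in DMSO cells averaged 278, 63.8 and 238 CPM at 24, 72 and 120 h, and CTSG 20.5, 40.1 and 19.6 CPM, so both returned at 120 h to near their 24 h level.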
